A study of Mus musculus with 12 samples.

Results

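The 2',5'-oligoadenylate synthetase (OAS) family was followed in NK and CD8 T cells that had infiltrated MC38 tumours. The 7 members taken from the count table by gene symbol were Oas1a, Oas1b, Oas1g, Oas2, Oas3, Oasl1 and Oasl2, out of 54232 gene identifiers, and all 7 passed the filter on low counts. MC38 is a mouse colon adenocarcinoma line, and tumours were collected 8 to 10 days after it was injected under the skin of both flanks. The hosts were sex-matched mice of 6 to 12 weeks that were wild type (WT, C57BL/6N), Tyk2-/- (KO, a germline knockout) or Tyk2 K923E (KE, a germline point mutation whose TYK2 protein is kinase-inactive). NK cells were sorted as CD45+ CD3ε- NK1.1+ and CD8 T cells as CD45+ CD3ε+ CD8a+, with 300 cells in each library and 2 libraries in each of the 6 groups. The sources do not say whether the 2 libraries of a group came from separate mice, so p-values measure only the spread between these libraries. Both mutant alleles are carried by every cell of the mouse, tumour-infiltrating cells other than those sorted included, while the injected tumour cells carry neither.

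OAS enzymes are induced by interferon and bind double-stranded RNA. On binding they make 2',5'-linked oligoadenylates (2-5A), a second messenger of antiviral defence. TYK2 is a Janus kinase bound to the type I interferon receptor, and with JAK1 it leads to ISGF3, the transcription factor complex that binds the interferon-stimulated response element (ISRE) in promoters of interferon-stimulated genes (ISG). The OAS1 gene, a single gene in humans, is a cluster of copies in the mouse. Whether the family needs the TYK2 protein or its kinase activity in tumour-infiltrating cells is what the comparisons of each mutant with WT, and of the mutants with each other, address.

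All 7 genes lie on chromosome 5 (GRCm38) in 2 clusters. Oasl2 (ENSMUSG00000029561, 114896936 to 114912234, plus strand) and Oasl1 (ENSMUSG00000041827, 114923240 to 114937915, plus strand) are neighbours. The other cluster holds Oas2 (ENSMUSG00000032690, 120730333 to 120749853, minus strand), Oas3 (ENSMUSG00000032661, 120753098 to 120777661, minus strand), Oas1b (ENSMUSG00000029605, 120812635 to 120824163, plus strand), Oas1g (ENSMUSG00000066861, 120876142 to 120887613, minus strand) and Oas1a (ENSMUSG00000052776, 120896256 to 120907521, minus strand). Oas1b is annotated as a polymorphic pseudogene and the other 6 as protein coding.

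Promoter sequences, 250 bases before to 50 after the RefSeq gene start, were given for 5 of the 7 members in RefSeq's GRCm38.p6 annotation, all but Oas2 and Oas1b. They were searched on both strands for the core of the ISRE, GAAANNGAAA, and 3.44% of 32851 promoters of this length held it at least once. The core was found in the promoters of Oas1a, Oas1g and Oas3 and was not in these windows of Oasl1 and Oasl2. The copies in Oas1a and Oas1g are a pair that overlap by 1 half-site, and 0.225% of all promoters held 2 or more. Those of Oas1a, Oas1g, Oas3 and Oasl2 are shown 5' to 3' on the strand of the gene with the core in capitals, the first 3 because they hold it and the last because Oasl2 was the member called by edgeR.
Oas1a, chr5:120907476-120907775, minus strand: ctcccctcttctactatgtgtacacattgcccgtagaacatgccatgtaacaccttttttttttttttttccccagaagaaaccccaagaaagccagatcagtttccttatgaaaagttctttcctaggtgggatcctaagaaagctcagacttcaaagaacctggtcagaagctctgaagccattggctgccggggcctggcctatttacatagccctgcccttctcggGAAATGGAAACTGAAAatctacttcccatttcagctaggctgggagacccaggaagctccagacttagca
Oas1g, chr5:120887564-120887863, minus strand: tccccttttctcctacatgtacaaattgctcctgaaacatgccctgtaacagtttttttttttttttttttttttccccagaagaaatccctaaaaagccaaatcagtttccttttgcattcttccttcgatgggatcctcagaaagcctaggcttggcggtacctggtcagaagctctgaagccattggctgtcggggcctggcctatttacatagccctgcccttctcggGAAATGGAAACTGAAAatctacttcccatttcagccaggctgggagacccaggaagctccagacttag
Oas3, chr5:120777610-120777909, minus strand: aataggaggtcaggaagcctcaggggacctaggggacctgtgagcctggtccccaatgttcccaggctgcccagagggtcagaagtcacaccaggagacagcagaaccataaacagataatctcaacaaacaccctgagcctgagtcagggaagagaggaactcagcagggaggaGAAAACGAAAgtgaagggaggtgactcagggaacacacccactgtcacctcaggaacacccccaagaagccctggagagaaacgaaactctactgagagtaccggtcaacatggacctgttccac
Oasl2, chr5:114896684-114896983, plus strand: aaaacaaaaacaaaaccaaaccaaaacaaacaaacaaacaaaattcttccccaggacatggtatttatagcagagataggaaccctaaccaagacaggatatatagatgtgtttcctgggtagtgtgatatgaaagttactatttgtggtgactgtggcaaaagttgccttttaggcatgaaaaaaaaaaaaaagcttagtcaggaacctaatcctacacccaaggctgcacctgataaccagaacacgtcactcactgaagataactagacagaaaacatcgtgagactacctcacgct
The pair of cores spans bases -20 to -5 from the start in Oas1a and -18 to -3 in Oas1g, and the core in Oas3 spans -75 to -66. The Oas1a and Oas1g promoters were identical at 85.3% of aligned positions.

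The similarity of Oas1a and Oas1g bears on their counts. Reads were 50 bases long and only those aligned to one place were counted, and 57.6% of the 50-base windows of Oas1a transcripts and 54.7% of those of Oas1g also occurred in transcripts of another gene, nearly all in each other. The share was 3.30% for Oas1b, 0.792% for Oas3 and 0% for Oas2, Oasl1 and Oasl2. Counts of Oas1a and Oas1g are therefore uncertain and may be too low by up to that share. Exons of Oasl1 overlap those of Gm13822, which had 39 counts in NK WT 2 and 0 in the other 11 libraries, and whether counting used strand was not given.

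Total counts per library were 10378761 to 14732882, and levels are given as CPM, counts scaled to a common total of 1e6 with the TMM effective library sizes. A count of 3 in a library, 0.219 to 0.276 CPM, was taken as the count floor. It covers counting error only, since PCR reads without molecular identifiers are not independent molecules, and fewer cells of a type and less RNA per cell cannot be told apart in bulk libraries. Tyk2 itself did not separate the genotypes, at 64.7 ± 5.89 CPM (SD, n = 2) in WT, 80.9 ± 34.9 in KO and 101 ± 25.3 in KE NK libraries and at 67.2 ± 27.2, 67.6 ± 9.15 and 53.1 ± 9.17 in CD8 libraries, so KO and KE stand for libraries labelled so. NK and T cell markers separated the 2 sorts, with summed levels of 5 NK markers of 3103 to 6905 CPM in NK and 128 to 415 CPM in CD8 libraries, and of 6 T cell markers of 42.4 to 325 CPM in NK and 9673 to 12909.5 CPM in CD8 libraries. Within NK libraries the NK marker sum moved with genotype, at 3103 to 4144 CPM in WT, 4488 to 6373 in KO and 6220 to 6905 in KE, so all 4 mutant libraries lay above WT, and its part in the results below was not tested. The NK libraries also held markers of myeloid cells, which express OAS genes too. The summed level of 12 such markers was 9392 CPM in NK WT 1 and 8706 in NK WT 2, above that of the NK markers in both, 5377 and 24.4 CPM in the KO and 61.7 and 268 CPM in the KE libraries, and 50.2 to 407 CPM in CD8 libraries. Every comparison that uses the NK WT libraries therefore has this difference beside it, and its part was not tested.

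In WT NK libraries 0 of 7 members were at the floor. In NK KO libraries 3 members were at the floor in both libraries, Oas2, Oas3 and Oasl1, and in NK KE libraries also 3, Oas1a, Oas1g and Oas2. In CD8 T cells 0 of 7 were at the floor in both WT libraries, 4 were in KO (Oas1g, Oas2, Oasl1 and Oasl2) and 2 in KE (Oas2 and Oasl2). Oas2 was thus at the floor in all 4 mutant groups, and Oas1b in none.

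**Figure D1:**
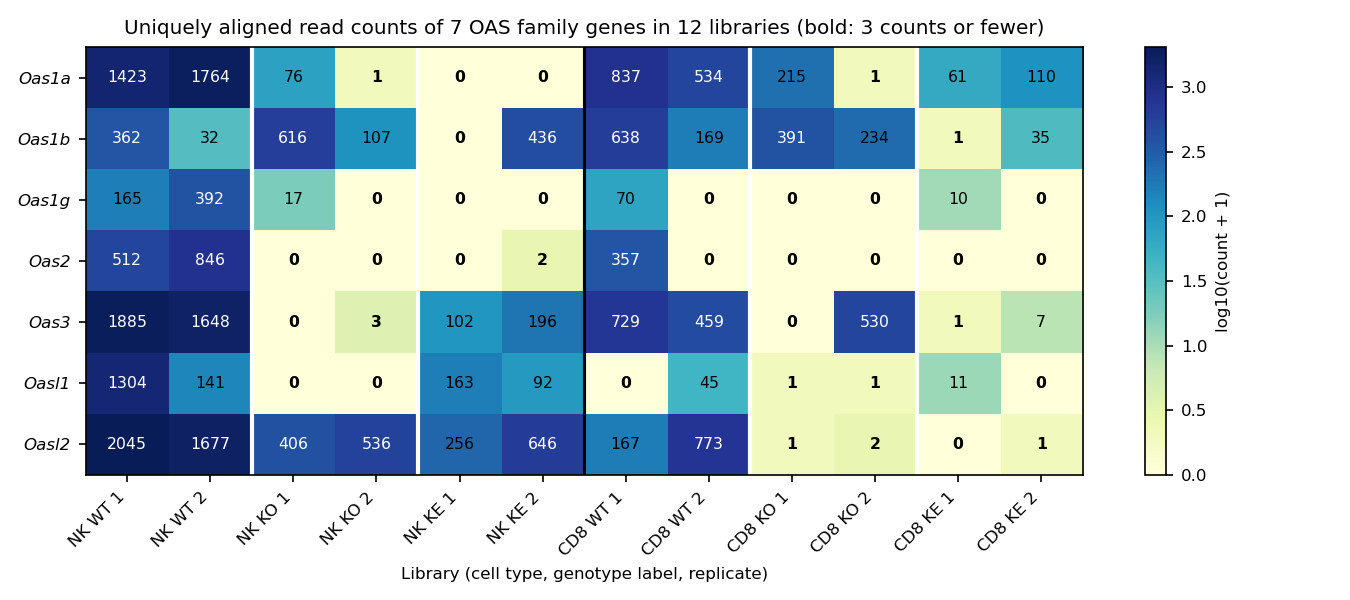
Uniquely aligned read counts of the 7 OAS family genes (vertical) in the 12 libraries (horizontal, grouped by cell type and genotype label), coloured by log10(count + 1), with counts of 3 or fewer in bold. Both NK WT libraries hold counts above 3 for all 7 genes, whereas Oas2 has 2 counts at most in each of the 8 mutant libraries.

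Oas1a and Oas1g encode active synthetases of the OAS1 type. Oas1a had 1423 and 1764 counts in the 2 WT NK libraries, 76 and 1 in KO and 0 in both KE libraries. The CD8 counts were 837 and 534 for WT, 215 and 1 for KO and 61 and 110 for KE. In both cell types all 4 mutant libraries lay below both WT libraries. The WT mean was 127 ± 12.2 CPM in NK and 50.3 ± 16.1 CPM in CD8 libraries. Relative to WT, the mean was 42.3-fold lower in NK KO, at least 504-fold lower in NK KE (computed against the floor per library), 6.16-fold lower in CD8 KO and 7.66-fold lower in CD8 KE. None of these passed the edgeR test. Its log2 fold change was -5.40 (SE 2.16, FDR 0.764) for NK KO, -2.62 (SE 1.89, FDR 0.924) for CD8 KO and -2.93 (SE 1.92, FDR 0.803) for CD8 KE, with an FDR of 0.445 for NK KE. Without KO 1, which held nearly all Oas1a counts of its group in both cell types, the fitted change was -10.57 in NK KO and -9.08 in CD8 KO. Fitted values against a group of 0 counts depend on the prior count and are not bounds.

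Oas1g followed at lower counts, 165 and 392 in WT NK libraries, 17 and 0 in KO and 0 in both KE libraries. Of the CD8 libraries, WT had 70 and 0 counts, both KO libraries 0 and KE 10 and 0. The NK groups did not overlap, whereas a WT CD8 library was itself at 0. The mean was 33.1-fold lower in NK KO, and at least 87.0-fold lower in NK KE, than the WT mean of 22.0 ± 11.6 CPM (edgeR FDR 0.856 and 0.821). The KO value rests on the 17 counts of KO 1, without which the fitted log2 fold change went from -5.03 to -11.13. The corresponding FDR values were 0.885 and 1 for CD8 T cells.

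Oas2 and Oas3 encode the larger synthetases with repeated OAS units. Oas2 had 512 and 846 counts in WT NK libraries, 0 in both KO libraries and 0 and 2 in KE. Among CD8 libraries 357 counts were found in WT 1, 0 in WT 2 and 0 in all 4 mutants. The groups did not overlap in NK cells, and CD8 WT 2 could not be told from the mutants. The NK WT mean was 53.9 ± 15.9 CPM, at least 235-fold above KO, and the ratio to KE was 652-fold (95% exact counting interval 180.1 to 5387). A ratio with such an interval comes from counts summed over the 2 libraries of each group, scaled by library size, and not from means. The interval covers counting error of reads only and leaves out the spread between libraries. The CD8 WT mean of 13.2 ± 18.6 CPM was at least 55.2-fold above KO and at least 56.0-fold above KE, and both bounds rest on 1 WT library. The edgeR FDR was 0.762 for NK KO, 0.803 for NK KE, 0.885 for CD8 KO and 0.791 for CD8 KE.

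Oas3 had the second highest mean counts in WT NK libraries, 1885 and 1648. KO libraries had 0 and 3 counts and KE libraries 102 and 196. The CD8 counts were 729 and 459 for WT, 0 and 530 for KO and 1 and 7 for KE. NK mutants lay below WT without overlap, and so did CD8 KE, while CD8 KO 2 lay between the WT libraries. The WT level in NK cells was 142 ± 21.3 CPM. From summed counts the ratio to KO was 1235-fold (95% exact counting interval 422 to 5993, without the spread between libraries). The ratio of means to KE, at 12.2 ± 3.90 CPM, was 11.7-fold. From 43.6 ± 14.4 CPM in WT CD8 T cells the ratio of means was 1.97-fold to KO and 146-fold to KE. By edgeR the NK log2 fold change was -10.17 (SE 2.70, FDR 0.570) for KO and -3.54 (SE 1.96, FDR 0.821) for KE, and that of CD8 T cells -0.98 (SE 1.79, FDR 1) for KO and -7.13 (SE 2.36, FDR 0.727) for KE. The CD8 KO change went to 0.02 without KO 1 and to -12.13 without KO 2.

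Oasl1 and Oasl2 encode OAS-like proteins with ubiquitin-like domains; OASL1 lacks synthetase activity and represses translation of Irf7, and OASL2 retains synthetase activity. Oasl1 had 1304 and 141 counts in WT NK libraries, 0 in both KO libraries and 163 and 92 in KE. The KO libraries lay below both WT libraries, while KE 1 lay between them. The WT mean was 59.7 ± 69.1 CPM, at least 261-fold above KO and 5.43-fold above KE (edgeR FDR 0.672 and 1). Both values rest mostly on WT 1, without which the fitted log2 fold change for KE went from -2.44 to 0.01. Oasl1 was low in CD8 T cells of every genotype, with 0 and 45 counts for WT, 1 and 1 for KO and 11 and 0 for KE, and the groups overlapped (edgeR FDR 0.893 and 1).

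Oasl2 had the smallest standard errors of the members and was the one that passed the edgeR test, while DESeq2 called others too. Its counts were 2045 and 1677 in WT NK libraries, 406 and 536 in KO and 256 and 646 in KE. CD8 libraries held 167 and 773 for WT, 1 and 2 for KO and 0 and 1 for KE. All 4 mutant libraries lay below both WT libraries in each cell type, and the 4 mutant CD8 libraries were at the floor. In NK cells the level was 150 ± 29.2 CPM in WT, 35.8 ± 5.84 in KO and 36.4 ± 18.1 in KE, 4.18-fold and 4.12-fold lower. The CD8 WT level was 34.3 ± 31.1 CPM. From summed counts the ratio was 290-fold (95% exact counting interval 98.8 to 1407) to KO and 883-fold (158 to 34924) to KE. Both intervals leave out the spread between libraries, such as 167 against 773 counts in WT. By edgeR the log2 fold change was -9.48 (SE 1.31, FDR 0.0351) in CD8 KE, -8.05 (SE 1.20, FDR 0.0651) in CD8 KO, -2.06 (SE 0.87, FDR 0.764) in NK KO and -2.04 (SE 0.87, FDR 0.805) in NK KE. The CD8 KE call had 2 libraries a group behind it and was lost without any 1 of its 4 libraries, with fitted changes of -11.77 to -8.00. By edgeR it was also lost with CD8 T cells fitted alone (-9.52, FDR 0.771) and with a replicate block (-9.38, FDR 0.0525). The CD8 ratios rest mostly on WT 2, without which the fitted change was -8.00 for KE and -6.57 for KO.

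Oas1b, known for its full-length allele in flavivirus resistance, encodes a truncated protein in common laboratory strains. NK libraries held 362 and 32 counts of it for WT, 616 and 107 for KO and 0 and 436 for KE. CD8 libraries held 638 and 169 for WT, 391 and 234 for KO and 1 and 35 for KE. The groups overlapped except in CD8 KE, where both libraries lay below WT. The NK means were 16.3 ± 19.6, 28.0 ± 28.4 and 16.6 ± 23.5 CPM in WT, KO and KE. The CD8 KE mean of 1.32 ± 1.75 CPM was 22.5-fold below WT (log2 fold change -4.48, SE 2.56, edgeR FDR 0.791). Oas1b was the single member with a positive fitted change in NK cells, 0.78 (SE 2.23, FDR 1) in KO and 0.03 (SE 2.21, FDR 1) in KE by edgeR. Both signs turned when single libraries were left out.

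**Figure D2:**
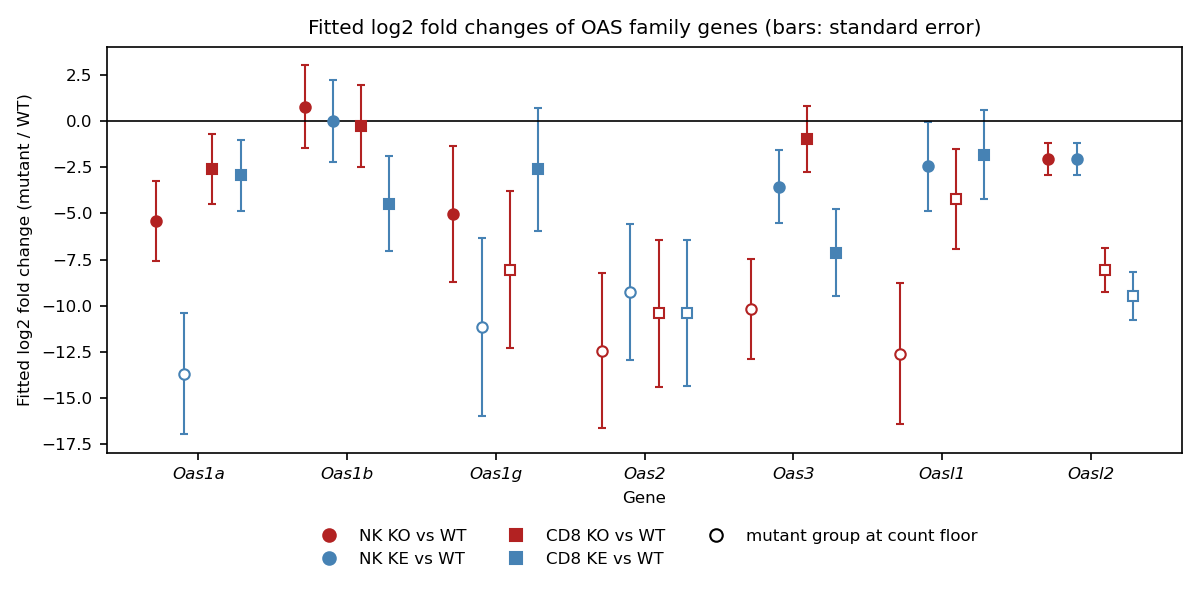
Fitted edgeR log2 fold changes (vertical, mutant over WT) of the 7 genes (horizontal) in the 4 mutant groups, with standard errors as bars and open symbols where both mutant libraries had 3 counts or fewer. Of 28 values, 26 are below 0, the open symbols are no bounds, and the shortest bars belong to Oasl2.

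A gene was called when its FDR among 13275 genes tested was under 0.05 and its log2 fold change was 1 or more in size. Of the 7 members, 0 were called in NK KO and 0 in NK KE by edgeR (0.0% and 0.0% of all genes), 0 in CD8 KO (0.0527% of all genes) and 1, Oasl2, in CD8 KE (0.0829%). At an unadjusted p under 0.05 by edgeR, 5 members were lower in NK KO, against 3.93% of all genes lower, 4 for NK KE (3.87%), 2 for CD8 KO (2.55%) and 3 for CD8 KE (3.01%), and 0 were higher in any of the 4. The median log2 fold change of the members was -5.40 for NK KO, -3.54 for NK KE, -4.21 for CD8 KO and -4.48 for CD8 KE, beside a median of 0 over all genes tested in each. The WT libraries are common to the KO and KE comparisons, so the 2 sets of values are not independent. DESeq2 called Oas1a, Oas3 and Oasl1 in NK KO (3.3% of all genes to which it gave an adjusted p), Oas1a in NK KE (3.39%), Oasl2 in CD8 KO (2.04%), and Oas3 and Oasl2 in CD8 KE (2.86%).

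With KO and KE averaged and set against WT, edgeR called 0 members in NK cells (0.0301% of all genes), where DESeq2 called Oas1a, Oas3 and Oasl1 (3.82%), and 1 in CD8 T cells (0.211%), Oasl2, with a log2 fold change of -8.76 (SE 0.92, FDR 0.00603). DESeq2 called the same member in CD8 T cells (2.84%), and edgeR called 0 there when CD8 T cells were fitted alone or without CD8 KO 1. Over both cell types 1 member was called (0.407%), again Oasl2, at -5.41 (SE 0.57, FDR 0.00382). DESeq2 called 5 members (3.76%), all but Oas1b and Oas1g. Next by edgeR came Oas1a at -6.16 (SE 1.25, FDR 0.101), Oas3 at -5.46 (SE 1.16, FDR 0.103) and Oas2 at -10.62 (SE 2.03, FDR 0.126). In this comparison 6 members were lower at an unadjusted p under 0.05 by edgeR, against 6.79% of all genes, with Oas1b as the exception (-0.99, SE 1.32, FDR 0.998). Within the cell types the counts were 6 in NK cells (6.73% of all genes) and 3 in CD8 T cells (4.36%). All 4 mutant libraries lay below both WT libraries for 5 members in NK cells (10.6% of all genes), Oas1a, Oas1g, Oas2, Oas3 and Oasl2, and for 2 in CD8 T cells (7.49%), Oas1a and Oasl2. The opposite, mutants above WT, was found for 0 members in either cell type.

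KO was compared with KE to ask whether loss of the protein differs from loss of kinase activity. No member was called, 0 of 7 in NK cells (0.0% of all genes) and 0 of 7 in CD8 T cells (0.0%) by edgeR. At an unadjusted p under 0.05, 3 members differed in NK cells (3.8% of all genes) and 1 in CD8 T cells (3.59%), the same numbers that DESeq2 called (1.63% and 1.37%). In NK cells Oas3 had 0 and 3 counts in KO against 102 and 196 in KE (log2 fold change -6.63, SE 2.38, edgeR p 0.0186, FDR 1), and Oasl1 had 0 and 0 against 163 and 92 (edgeR p 0.0183, FDR 1). Oas1a went the other way, with 76 and 1 counts in KO against 0 and 0 in KE (edgeR p 0.0210, FDR 1). Nearly all of these Oas1a counts came from KO 1. That library held 5377 CPM of myeloid markers, against 24.4 in KO 2 and 61.7 and 268 in KE, and their part was not tested. Oas3 had 0 and 530 counts in CD8 KO against 1 and 7 in CD8 KE (edgeR p 0.0212, FDR 1), groups that overlap. For Oasl2 in NK cells the difference was -0.02 (SE 0.84, FDR 1).

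The mutant effect was set against itself in the 2 cell types by an interaction term. By edgeR 0 members passed for KO (0.0151% of all genes) and 0 for KE (0.0%), and 2 had an unadjusted p under 0.05 in each (5.32% of all genes for KO and 6.18% for KE). DESeq2 called Oasl2 and Oas3 for KO (1.65%) and Oasl2 and Oas1a for KE (2.42%). Oasl2 had the smallest p in both, with a less negative change in NK than in CD8 cells by 5.98 (SE 1.36, p 0.00125, FDR 0.559) for KO and 7.44 (SE 1.47, p 4.50e-04, FDR 0.394) for KE by edgeR. The CD8 arm of both rests on groups at the floor. Oas3 differed the opposite way for KO, by -9.19 (SE 3.02, edgeR p 0.0118, FDR 0.894), and so did Oas1a for KE, by -10.73 (SE 3.54, edgeR p 0.0136, FDR 0.784), where the NK KE libraries were at 0.

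In WT libraries 0 members were called between NK and CD8 T cells by edgeR (0.783% of all genes), 1 had an unadjusted p under 0.05 (10.2% of all genes, near 1 of 7), and DESeq2 called 0 (6.87%). That one, Oasl2, was 2.13 higher in NK cells on the log2 scale (SE 0.88, edgeR p 0.0350, FDR 0.452), with both NK libraries above both CD8 libraries, as for the myeloid marker sum. The fitted value was higher in NK cells for 6 members, the exception being Oas1b (-0.86, SE 2.23, edgeR FDR 0.991). Levels of different genes were compared as CPM per kb of exon. In WT NK cells Oas1a led at 67.5 ± 6.46, then Oasl2 at 47.9 ± 9.35, Oas3 at 30.1 ± 4.52, Oasl1 at 27.1 ± 31.4, Oas2 at 13.6 ± 4.01, Oas1g at 11.1 ± 5.88 and Oas1b at 8.86 ± 10.6 CPM per kb (SD, n = 2). Oas1a, Oasl2 and Oas3 were in this order without overlap. Oasl1, whose libraries lay furthest apart, overlapped both Oasl2 and Oas3, and each later gene overlapped its neighbour in the order. Counted per kb of windows unique to the gene, Oas1a stood at 163 ± 15.6 and Oas1g at 25.2 ± 13.3 CPM per kb, which moved Oas1g above Oas2.

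In WT CD8 T cells Oas1a again led at 26.7 ± 8.56 CPM per kb, followed by Oas1b at 16.1 ± 13.3, Oasl2 at 10.99 ± 9.96, Oas3 at 9.24 ± 3.04, Oas2 at 3.32 ± 4.70, Oas1g at 1.31 ± 1.85 and Oasl1 at 0.743 ± 1.05. The single step without overlap was that from Oas3 to Oas2. In the mutants Oas1b or Oasl2 stood first in NK cells, at 15.2 ± 15.4 and 11.5 ± 1.87 CPM per kb in KO and 9.02 ± 12.8 and 11.6 ± 5.79 in KE, and the 2 genes overlapped. In CD8 T cells Oas1b was first in KO at 13.3 ± 3.87, and Oas1a was first in KE at 3.49 ± 1.10 CPM per kb, each above the next gene without overlap.

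**Figure D3:**
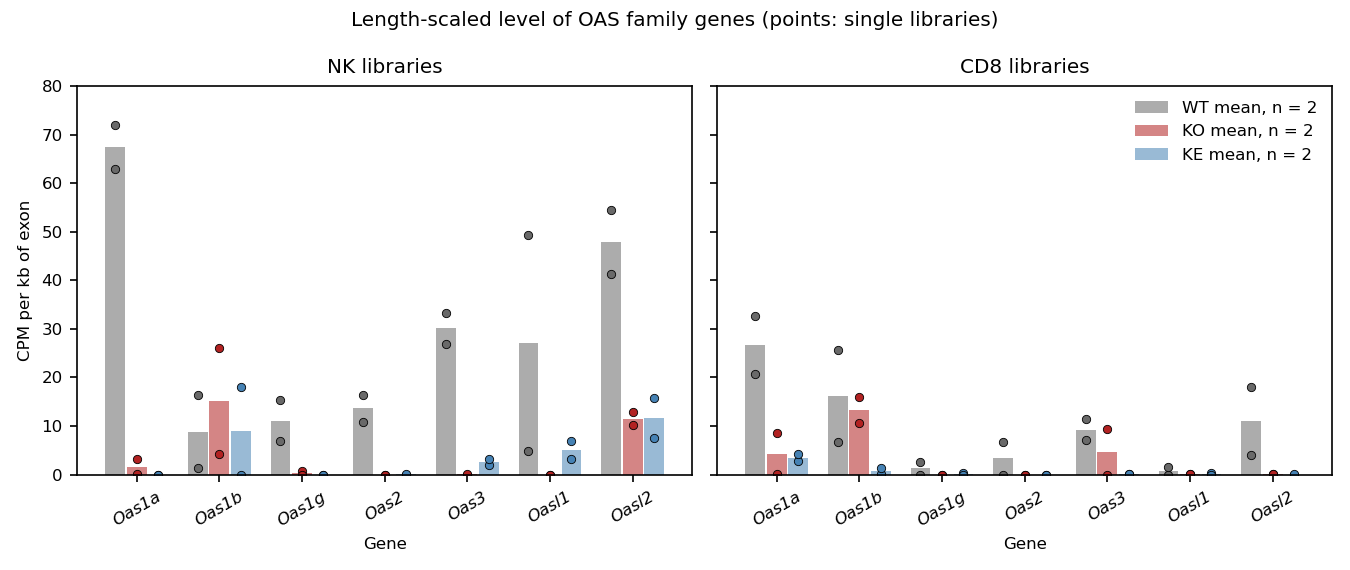
Level in CPM per kb of exon (vertical) of the 7 genes (horizontal) in NK libraries (left) and CD8 libraries (right). Bars are means of 2 libraries and points single libraries. Oas1a in WT NK cells stands highest, at 67.5, and Oas1b is the gene that has a KO and a KE point above both its WT points in NK cells.

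The 2 libraries of a group were compared for each member. Among the 42 pairs of a member and a group, 22 had at least 100 counts in a library, and in 4 of these the other library had 3 counts or fewer: Oas1b in NK KE, Oas2 in CD8 WT, and Oas1a and Oas3 in CD8 KO. Over all genes tested this was so for 9.93% of such pairs. Summed over the 7 members, the level was 500.3 to 641 CPM in WT, 48.2 to 87.1 in KO and 48.0 to 104 in KE NK libraries. In CD8 libraries it was 144 to 206 CPM in WT, 46.0 to 64.0 in KO and 7.02 to 11.2 in KE. Every mutant sum lay below both WT sums of its cell type.

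The myeloid markers moved with genotype in the NK libraries. All 12 were above the floor in both WT libraries, 11 in KO 1 and 5 in KO 2, and 6 in KE 1 and 10 in KE 2. Cd14, a receptor for lipopolysaccharide on monocytes and macrophages, was at 0 in KO 2 and KE 1, and Adgre1, which encodes F4/80, was at 0 in KE 1. The markers of KO 1 were uneven beside WT. Lyz2 stood at 3371 CPM in KO 1 against 2095 to 2493 in WT and C1qb at 949 against 2291 to 2418, whereas Adgre1 stood at 8.59 against 249 to 284 and Csf1r, at 0.156 against 291 to 302, was under the floor. Of the 12 markers, 11 were below both WT libraries in KO 1, all but Lyz2. In the same library Oas2, Oas3 and Oasl1 had 0 counts, Oas1g 17, Oas1a 76, Oasl2 406 and Oas1b 616, the last above both WT libraries. Whether the NK differences follow the myeloid signal was not tested.

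In CD8 libraries the myeloid sum was 178 to 189 CPM in WT, 50.2 to 152 in KO and 199 to 407 in KE, and its part in the CD8 results was not tested. Of the 12 markers, 7 and 8 were above the floor with WT, 6 and 9 with KO and 8 and 10 with KE. Adgre1 was at 0 in CD8 KE 2, Itgam in both CD8 KE libraries and Cd14 in CD8 KO 1. T cell markers in NK libraries summed to 42.4 to 101 CPM in WT, 49.2 to 298 in KO and 171 to 325 in KE. Dendritic cell markers had at most 3 of 6 above the floor in any library. Their sum was highest in KE among NK libraries, at 0.0770 to 2.58 CPM in WT, 0.0746 to 0.156 in KO and 21.8 to 27.5 in KE, and lowest in KE among CD8 libraries, at 37.4 to 68.1, 35.8 to 40.6 and 8.44 to 31.8 CPM. B cell markers had at most 1 of 5 above the floor, and so had neutrophil markers, the last in WT NK libraries alone at 6.25 and 6.70 CPM. In CD8 libraries B cell markers summed to 0 to 0.729 CPM in WT, 6.35 to 10.2 in KO and 0 in KE, and tumour epithelial markers to 0 to 1.92, 10.6 to 17.1 and 3.01 to 26.6 CPM, so that WT lay below the mutants for the latter. Tumour epithelial markers in NK libraries, at up to 51.5 CPM, and stromal markers there, at up to 263 CPM, had overlapping ranges between genotypes. The epithelial sum there came from Epcam and Cdh1, with Krt8, Krt18 and Krt19 at 0. Pecam1 gave nearly all of the stromal sum there, 262 CPM in NK WT 1, with Col1a2 and Pdgfrb at 0. In CD8 libraries stromal markers summed to 13.8 to 92.5 CPM in WT, 5.90 to 34.5 in KO and 45.8 to 63.7 in KE, so KO lay below KE and both overlapped WT. The part of these markers in the results was not tested.

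**Figure D4:**
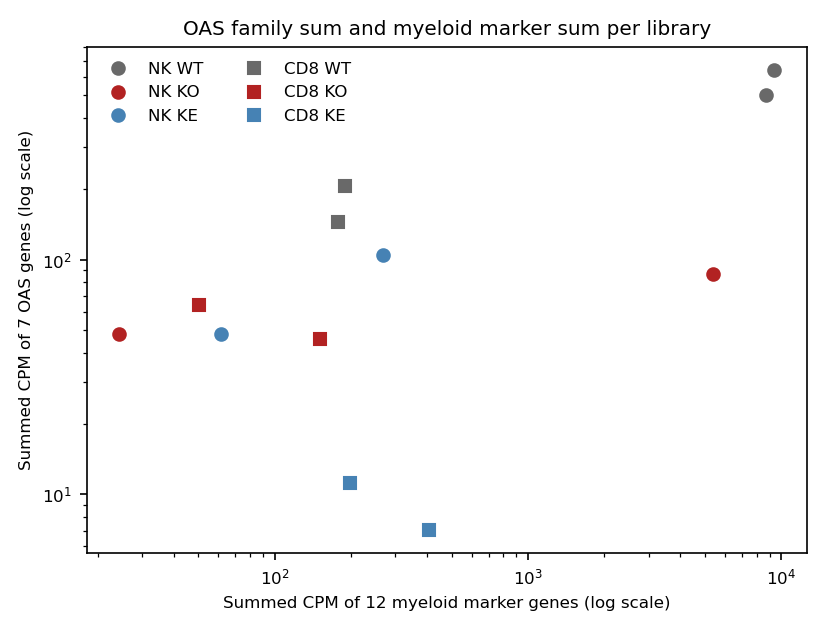
Summed CPM of the 7 OAS genes (vertical, log scale) against summed CPM of 12 myeloid marker genes (horizontal, log scale), with 1 point per library, shaped by cell type and coloured by genotype label. NK KO 1 lies at 5377 CPM of myeloid markers, of which Lyz2 alone gives 3371. Its OAS sum is 87.1 CPM, of which Oas1b gives 48.1, and the 2 CD8 KE libraries lie lowest in OAS sum.

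The 5 further Oas1 paralogues are not members of the set above. Oas1e, Oas1f and Oas1h had 0 counts in all 12 libraries, which allows up to 0.276 CPM in the shallowest, and Oas1d had 1 count in NK KE 2. Oas1c had 38 and 393 counts in WT NK libraries, 0 and 250 with KO and 128 and 42 with KE, groups that overlap. CD8 libraries had 893 and 421 for WT, 12 and 5 for KO and 12 and 72 for KE, so the mutants lay below WT. Its CD8 level was 48.3 ± 24.9 CPM in WT, 72.9-fold above KO and 15.4-fold above KE (log2 fold change -6.16, SE 2.66, FDR 0.885 and -3.94, SE 2.38, FDR 0.791 by edgeR). The RefSeq promoter of Oas1c, chr5:120812465-120812764 on the minus strand, holds an overlapping pair of the ISRE core at -114 to -99 and covers the annotated start of Oas1b on the opposite strand.

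Of 3 genes of the 2-5A pathway outside the family, Abce1 and the genes Pde12 and Akap7, whose products degrade 2-5A, 0 were called by edgeR and 1 by DESeq2 for mutants against WT over both cell types, 1 was lower at an unadjusted p under 0.05 by edgeR, and the median log2 fold change was -0.18. In this comparison, which the lists below share, 0.407% of all genes were called by edgeR and 3.76% by DESeq2, and 6.79% were lower at that unadjusted p. The single one was Akap7 (-5.03, SE 2.18, edgeR p 0.0456, FDR 0.491), which had 671 and 0 counts in the WT CD8 libraries and so rested on 1 library. Abce1 had fitted values of opposite sign in the 2 cell types, -0.64 in NK mutants (SE 0.38, FDR 0.709) and 1.14 in CD8 mutants (SE 0.41, p 0.0192, FDR 0.707), and 0.25 over both (SE 0.28, FDR 0.955) by edgeR. Pde12 had -0.18 over both (SE 0.49, edgeR FDR 1.00).

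Among 8 genes of double-stranded RNA sensing, 1 was called over both cell types by edgeR, 3 were lower at an unadjusted p under 0.05 and the median was -1.04, beside -0.03 over all genes and -5.46 for the OAS members. Zbp1, a sensor of Z-form nucleic acids, fell by 1.69 on the log2 scale (SE 0.21, FDR 0.00839 by edgeR), from 191 ± 10.1 to 110.0 ± 20.9 and 57.6 ± 25.4 CPM in NK KO and KE and from 360 ± 0.0626 to 79.1 ± 21.0 and 87.8 ± 0.280 CPM in CD8 KO and KE. The RNA helicases Ddx58 (RIG-I) and Dhx58 (LGP2) had -1.04 (SE 0.38, FDR 0.382) and -2.67 (SE 1.01, FDR 0.389) by edgeR. Of 8 genes of the type I interferon receptor and ISGF3, 1 was called and 4 were lower at that unadjusted level, with a median of -0.52. Irf7, which drives interferon gene expression, fell by 2.44 (SE 0.38, FDR 0.0259 by edgeR), from 528 ± 107 to 99.98 ± 4.33 and 138 ± 17.0 CPM in NK cells and from 303 ± 3.67 to 35.8 ± 22.5 and 59.4 ± 58.0 CPM in CD8 T cells. Stat2 had -1.40 (SE 0.45, edgeR FDR 0.313).

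The DNA sensing pair was cGAS and STING, of which 0 of 2 were called by edgeR or DESeq2 and 0 were lower at an unadjusted p under 0.05. Tmem173, which encodes STING, stood at -0.05 (SE 0.24, edgeR FDR 1), and Cgas at 1.58 (SE 1.61, edgeR FDR 0.931). Robust ISG are genes induced in most mammalian cells at low interferon, a list the study compiled from earlier work. Of its 56 genes outside the OAS family 42 were tested, 5 were called, all lower (DESeq2 called 15, all lower), 24 were lower at an unadjusted p under 0.05 by edgeR (6.79% of all genes) and the median was -1.28. The 3 with the smallest p were Xaf1 (-1.81, SE 0.23, FDR 0.00864), Isg20, an exonuclease (-1.58, SE 0.22, FDR 0.0142), and Irf7, all by edgeR. The other 2 called, named after their values were seen, were Ifit2 (-3.09, SE 0.51) and Samd9l (-1.40, SE 0.23).

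Position was described with the genes around the 2 clusters. Of 43 annotated genes outside the family within 200 kb of a member, 16 were tested, 0 were called over both cell types by edgeR or DESeq2 and 1 was lower at an unadjusted p under 0.05, near the 6.79% of all genes, with a median of -0.22. The one was Rita1 (-5.49, SE 2.00, edgeR p 0.0218, FDR 0.382), with 160 and 170 counts in WT NK libraries and 0, 1, 0 and 0 in the mutants, while in CD8 T cells WT 1 was at 0 and KE 2 at 167. The next 2 were Ddx54 (2.18, SE 1.21, edgeR FDR 0.641) and 2210016L21Rik (-0.68, SE 0.39, edgeR FDR 0.662).

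The genes whose log2 CPM over the 12 libraries were most like the mean standardized log2 CPM of the 7 members were C5ar1 (Pearson r 0.928), Tlr13 (0.927), Rapsn (0.926), 4930430E12Rik (0.919) and Gm21188 (0.913), out of 13267 compared. These values are descriptions over libraries that share genotype, cell type and depth. C5ar1, a complement receptor of myeloid cells, had 711 and 1652 counts in WT NK libraries, 0 in both KO and 0 and 7 in KE, and 222 and 1 in WT CD8 libraries. Tlr13, an endosomal receptor for bacterial ribosomal RNA, had 926 and 1361, 0 and 0, and 0 and 11 in NK cells and 139 and 208 in WT CD8 libraries, against at most 5 in the CD8 mutants.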

How the data were processed

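The deposited values were raw counts per gene, which the authors made from 50-base single-end Smart-seq2 reads with Trimmomatic 0.32, STAR 2.7.1 and summarizeOverlaps (GenomicAlignments 1.6.3) on GRCm38, counting uniquely aligned reads. Whether counting used strand is not given in the sources used here. Groups came from the sample titles.

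Counts were tested with edgeR 4.0.16 (R 4.3.3, TMM, robust quasi-likelihood F-test, two-sided) in 1 model of 6 group means over all 12 libraries, for the 13275 genes whose normalized count averaged at least 10, with Benjamini-Hochberg adjustment over all of them (FDR). Standard errors were the log2 fold change over the square root of F. The fits were tested on simulated data. Likeness used log2 CPM with a prior count of 2. DESeq2 1.42.0, its size factors, no filter, single cell types, a replicate block and left-out libraries were alternatives.

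All 7 members and the paralogues were always named. Lists named up to 3 genes by their p over both cell types, neighbours likewise, and likeness its first 5. Some genes that this rule would name are not reported here. Members and lists were chosen with earlier results of these data known.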

Additional observations from a re-analysis of the deposited data

How the results depend on the processing

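The number of members called depended on the tool and on the filter. Against WT, DESeq2 called 3 for NK KO, 1 for NK KE, 1 for CD8 KO and 2 for CD8 KE, 3 and 1 in KO against KE in NK and CD8 T cells, 3 in NK mutants, 5 in mutants over both cell types and 2 in each interaction. Without a filter on low counts edgeR called 4, 1, 1 and 2 against WT, 2 and 1 in KO against KE, 4 in NK mutants, 3 in CD8 mutants, 6 over both cell types and 2 in each interaction, and the cause was not tested. Over all genes these settings also called more, 379 (DESeq2) and 195 (no filter) against 0 in NK KO. Fitting CD8 T cells alone gave 0 in CD8 KE and 0 in CD8 mutants, with 6 libraries in place of 12.

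Leaving out 1 library at a time gave 0 to 1 members in CD8 KO (1 without WT 1), 0 in each fit of CD8 KE, 0 to 1 in CD8 mutants (0 without KO 1) and 1 to 2 over both cell types, where Oas3 joined Oasl2 without CD8 KO 1 (FDR 0.0371) or KO 2 (FDR 0.0141). Oasl2 was called over both cell types in each of these 12 fits. Signs turned for Oas1b (-1.05 to 3.50 for KO and -10.70 to 2.72 for KE in NK cells, -0.94 to 0.99 for KO in CD8 T cells), Oas1g in CD8 KE (-8.08 to 5.44), Oas3 in CD8 KO (-12.13 to 0.0202), and Oasl1 in NK KE (-3.32 to 0.0133) and CD8 KE (-7.41 to 5.57). Oas1b in NK KE also turned to -0.0451 with DESeq2 size factors, -0.0455 with DESeq2, -0.0043 with no filter and -0.0376 with NK cells alone. Of 246 log2 fold changes under alternatives, 213 kept sign and side of the threshold, and 4 folds of CD8 T cells had no value because both groups fell to the floor without a WT library, and the 2 of Oasl1 had none with CD8 T cells alone because its mean count there was under the filter's minimum.

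Same-numbered libraries of different groups did not deviate together (r from -0.0255 to 0.0380 over 15 pairs of groups). No sign of pairing was seen, but between libraries this variable the check could miss it. With a replicate block the CD8 KE call went from 1 to 0 (Oasl2 log2 fold change -9.38, FDR 0.0525), and no other count of members changed. The common biological coefficient of variation over the libraries, each made from 300 cells, was 109%, and its sources were not separated.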
